A study of Mus musculus with 20 samples.

Results

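The amino acid transporter genes described here are those of 7 solute carrier families, chosen by name and not by any measured value. All genes whose platform symbol starts with Slc1a, Slc3a, Slc6a, Slc7a, Slc36a, Slc38a or Slc43a were taken, which gave 63 of the 18194 genes with a named probe set. The 63 genes had 125 probe sets, and each gene was read from whichever of its probe sets averaged highest across the 20 arrays. Of the 63, 3 are opposite-strand genes whose symbols carry a transporter's name (Slc36a1os, Slc6a19os and Slc7a6os) and 60 are carrier genes. As background, amino acids cross cell membranes mostly through carrier proteins, of these and other families. Several work in pairs: the glycoprotein Slc3a2 (CD98 heavy chain) brings light chains of the Slc7a family to the surface. Carriers on the plasma membrane import leucine, glutamine, arginine and cystine for growth and for glutathione, while carriers on lysosomes release amino acids and report them to the growth kinase complex mTORC1. The transcription factor ATF4 induces many of these genes when amino acids are short or are being consumed fast.

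The series profiled mouse dendritic cell development on Affymetrix mouse expression arrays, with 2 arrays in each of 10 groups, and its title names the question of how TGF-β1 acts on dendritic cell differentiation. All cells came from C57BL/6 bone marrow, with no gene altered according to the labels. Conventional dendritic cells (cDC, antigen-presenting cells) and plasmacytoid dendritic cells (pDC, interferon producers) had been grown from amplified progenitors, the in vivo common dendritic cell progenitors (in vivo CDP) are named as such by their labels, and CDP and multipotent progenitors (MPP) had been amplified in culture. In the other 5 groups cultured CDP had received TGF-β1 for 0 (untreated), 4, 8, 12 or 24 h. Neither the TGF-β1 dose nor a number of mice or cultures was given in the sources used. Whether the 2 arrays of a group stand for separate cultures or mice is not stated, so the p-values reflect array-to-array spread that may be technical. No untreated culture of 4 to 24 h is among the samples, so effects of TGF-β1 and of time itself cannot be told apart. Per the labels, 1 µg RNA of MPP, CDP, cDC and pDC was labelled with a one-cycle kit. A 3′ IVT kit was used on 250 ng for the TGF-β1 series and on 50 ng for in vivo CDP, whose RNA was also extracted with another kit.

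Values are log2 intensities as deposited. The 10 arrays of cDC, pDC, in vivo CDP, CDP and MPP share a floor of 2.25, where 33.7% to 35.5% of probe sets lie, and 34.0% to 35.2% of probe sets lie above 5. The 10 TGF-β1 arrays have no such floor and 54.4% to 56.0% of probe sets above 5, so the sets are not on one scale and no level is compared between them. On 3 TGF-β1 arrays (replicate 1 at 4, 12 and 24 h) the 3′ probe set of Gapdh exceeded its 5′ probe set by 2.09 to 2.78 log2 units, against 0.00946 to 0.100 on the other 7. The same gap for actin was 1.89 to 2.11 on these 3 arrays. On the arrays that share the floor it was 1.23 and 2.11 in CDP, 1.91 and 2.04 in MPP, 1.39 and 1.09 in in vivo CDP, 0.69 and 0.84 in cDC and 0.84 and 0.94 in pDC. Their Gapdh gap ran from -0.21 to 0.98, highest in in vivo CDP (0.98 and 0.47). The part of these gaps in the comparisons was not tested. Of the markers of each label, 7 of 7 cDC markers were above 5 on both cDC arrays, 7 of 7 pDC markers on both pDC arrays, 4 of 4 CDP markers on both in vivo CDP and both CDP arrays, and 5 of 5 MPP markers on both MPP arrays. These counts alone do not separate the groups, since all 7 pDC markers were also above 5 in cDC, all 4 CDP markers in every group and all 5 MPP markers in in vivo CDP. The mean log2 level of the cDC markers was 11.32 to 11.66 in cDC and at most 7.19 in the other 4 groups, and that of the pDC markers was 13.77 to 13.98 in pDC and at most 9.80 in the others. The CDP markers averaged 10.89 to 11.17 in cDC, against 10.35 to 10.77 in CDP, so they do not set CDP apart from cDC. Granulocyte markers also differed between groups: their mean log2 level over 7 genes was 3.73 to 3.74 in cDC, 3.35 to 3.43 in pDC and 8.65 to 9.98 for in vivo CDP, against 6.98 to 8.06 in CDP and 10.26 to 10.99 in MPP. Of these 7 genes, Elane, Ctsg, Ngp, Camp, Ltf and Mmp8 were under 5 in cDC and pDC, and Elane, Camp and Ltf were under 5 in CDP. The mean of 3 macrophage markers was 9.63 to 9.90 in cDC, 7.41 to 9.23 in pDC, 6.65 to 6.85 in in vivo CDP, 8.18 to 9.33 in CDP and 7.43 to 7.79 in MPP. Among them Adgre1 read 4.32 and 8.86 on the 2 pDC arrays. The mean of 4 mast cell and basophil markers was 3.28 to 5.07 in cDC. The part of RNA of such cells or of granulocytes in the results below was not tested. In bulk samples fewer cells of a type and less RNA per cell cannot be told apart.

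Of the 63 genes, 21 were measured on the 8 one-cycle arrays, meaning that they read above 5 on at least 2 of them, and 42 were not. On all 10 arrays that share the floor 41 members stayed under 5, and 32 of them stayed under 2.5. These 32 include the serotonin carrier Slc6a4, the glycine carrier Slc6a5, the renal heavy chain Slc3a1, the inducible arginine carrier Slc7a2 and the glutamate carriers Slc1a1, Slc1a2 and Slc1a3. The neutral amino acid carrier Slc6a15 read 6.70 and 3.25 in MPP and no more than 2.26 on the other 8 arrays. It passed 5 on 1 array only and was not tested. On the TGF-β1 arrays 38 members were measured, 20 of them also on the one-cycle arrays. The 18 others include 8 of the 32 near-floor members whose untreated (0 h) readings were both above 5, such as Slc7a4 at 7.55 and 7.47 and the neuronal carrier Slc6a17 at 7.13 and 7.11. Whether these readings are RNA or the missing floor of those arrays was not tested.

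Upstream sequences of the members are shown because some of the genes that differ between groups carry short motifs known from amino acid and oxidant responses. RefSeq promoters (build GRCm38.p6) matched 46 of the 63 members, with 67 promoters. The 250 bases before each start were searched on both strands for TGATGNAA, the core of the C/EBP-ATF response element bound by ATF4, and for TGACNNNGC, the core of the antioxidant response element bound by Nrf2. The first motif was present in 3.45% of all 32851 promoters and in 4 of the 67 member promoters. The second was present in 10.2% of all promoters and in 10 of the 67. Among members called in the main fit of a comparison below, Slc7a11 held the first motif, and Slc6a9, Slc7a1, Slc7a6, Slc38a2 and Slc43a1 held the second. Slc7a7, which held the first motif, and Slc6a13, which held the second, were called only under alternative settings. The stretches around the matches follow, 5′ to 3′ on the gene's strand, with the motif in capitals. The Slc7a11 window lies at chr3:50443632-50443719 on the minus strand and carries TGATGNAA in both orientations, at bases -66 to -59 and -47 to -40 before the start. In Slc7a1 (chr5:148399905-148399955, minus strand), Slc7a6 (chr8:106168813-106168901, plus strand) and Slc6a9 (chr4:117849264-117849349, plus strand, and chr4:117855462-117855546, plus strand, from 2 of its promoters) the capitals mark TGACNNNGC.
Slc7a11: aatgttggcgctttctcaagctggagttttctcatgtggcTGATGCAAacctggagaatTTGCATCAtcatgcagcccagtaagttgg
Slc7a1: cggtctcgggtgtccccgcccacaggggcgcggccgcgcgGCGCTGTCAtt
Slc7a6: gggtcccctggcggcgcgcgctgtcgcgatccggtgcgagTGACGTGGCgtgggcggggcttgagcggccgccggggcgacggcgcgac
Slc6a9, first promoter: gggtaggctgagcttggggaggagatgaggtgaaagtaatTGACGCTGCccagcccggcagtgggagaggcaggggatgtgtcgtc
Slc6a9, second promoter: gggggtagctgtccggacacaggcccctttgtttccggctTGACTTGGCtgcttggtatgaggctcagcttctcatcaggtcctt
A match describes letters and is not a measured binding site. The windows of Slc3a2, Slc1a4, Slc38a9, Slc38a6, Slc38a7, Slc36a1 and Slc43a2 held neither motif, which says only that these letters are absent from them. Promoters of Slc7a5, Slc7a3, Slc1a5, Slc38a1, Slc43a3 and Slc6a6 were not matched.

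The measured surface carriers of leucine, cystine, arginine and serine (Slc7a5 with its partner Slc3a2, Slc7a11, Slc7a1 and Slc1a4) were lower in both kinds of dendritic cell than in the cultured CDP, and the lysosomal carrier Slc38a9 and the taurine carrier Slc6a6 were higher. In cDC against CDP, 2 of the 21 measured members were higher and 13 lower, where 18.7% of all 8901 genes tested were higher and 29.3% lower. In pDC against CDP, 3 were higher and 14 lower, against a background of 21.7% higher and 31.6% lower. The median difference of the 21 members was -1.03 in cDC, against -0.16 over all genes tested, and -0.70 in pDC, against -0.14. The cDC and pDC comparisons share the same 2 CDP arrays, so their values are given side by side and their likeness is no independent result. By role, the lower members were the heavy chain Slc3a2, all 3 measured light chains, both measured cationic carriers and both measured Slc1a carriers in cDC and in pDC, while the 6 measured Slc38a carriers split, with 1 higher and 2 lower in cDC and 2 higher and 3 lower in pDC. With all genes tested and no filter on low values, the calls of Slc1a5 (adjusted p = 0.0851), Slc36a1 (0.0574) and Slc38a1 (0.0635) in cDC were lost, and those of Slc36a1 (0.117), Slc38a1 (0.123), Slc38a10 (0.109) and Slc38a2 (0.0658) in pDC.

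**Figure D1:**
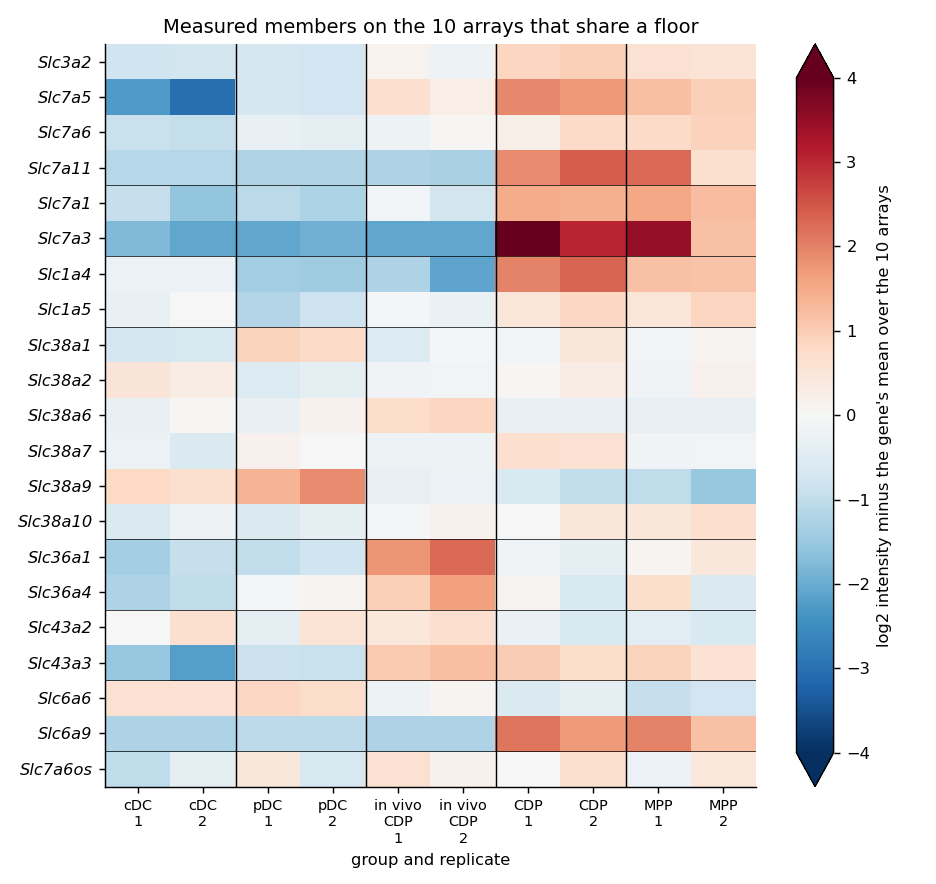
Log2 intensity of the 21 measured members (rows, ordered by role) on the 10 arrays that share a floor (columns), each shown as its difference from the gene's mean over those arrays, with the colour scale clipped at 4 log2 units. Slc7a3, Slc7a11 and Slc6a9 are low on all 6 arrays of cDC, pDC and in vivo CDP, and Slc38a9 reads above its mean only on the 4 arrays of cDC and pDC.

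The heavy chain Slc3a2, which light chains need to reach the surface, read 8.51 and 8.57 in cDC and 8.63 and 8.54 in pDC, against 10.16 and 10.26 in CDP. All 4 dendritic cell arrays lay below both CDP arrays. The fall was 3.18-fold in cDC (log2 difference -1.67 ± 0.15 SE, adjusted p = 0.000331) and 3.09-fold in pDC (-1.63 ± 0.15 SE, adjusted p = 0.000239). The light chain Slc7a5 (LAT1), the leucine importer, read 6.54 and 5.80 in cDC and 8.11 and 8.06 in pDC, against 10.74 and 10.55 in CDP. No array overlapped, and the fall was 22.2-fold in cDC (-4.47 ± 0.26 SE, adjusted p = 7.59e-05) and 5.88-fold in pDC (-2.56 ± 0.26 SE, adjusted p = 0.00035). The light chain Slc7a6 (y+LAT2), which exchanges arginine for glutamine, read 7.44 and 7.38 in cDC and 8.03 and 7.93 in pDC, against 8.56 and 9.11 in CDP. It fell by 1.43 on the log2 scale in cDC (adjusted p = 0.00219) and by 0.85 in pDC (adjusted p = 0.0138), with no overlap of arrays. The pDC call was lost without CDP replicate 2 (adjusted p = 0.0595) or pDC replicate 2 (0.0657). The light chain Slc7a11 (xCT) imports cystine in exchange for glutamate. It read 2.40 and 2.40 in cDC and 2.33 and 2.33 in pDC, against 5.45 and 5.98 in CDP. The dendritic cell arrays lay near the floor, so the fall is at least 1.64-fold in each (adjusted p = 0.00191 in cDC and 0.00128 in pDC on the full difference). The call was lost when values under 5 were raised to 5 (adjusted p = 0.0865 in cDC and 0.081 in pDC), since the gene's CDP readings are close to 5. Its second probe set differed by -3.10 in cDC and -3.13 in pDC.

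Both measured cationic carriers fell. Slc7a1 (CAT1), the general arginine and lysine importer, read 9.29 and 8.64 in cDC and 9.13 and 8.95 in pDC, against 11.71 and 11.65 in CDP. The groups did not overlap, and the fall was 6.59-fold in cDC (-2.72 ± 0.25 SE, adjusted p = 0.000339) and 6.25-fold in pDC (-2.64 ± 0.25 SE, adjusted p = 0.000247). Slc7a3 (CAT3), a related arginine carrier best known from the brain, read 2.70 and 2.38 in cDC and 2.38 and 2.52 in pDC, against 8.70 and 7.50 in CDP. The dendritic cells were near the floor and the CDP arrays well above it, a fall of at least 8.57-fold in each kind (adjusted p = 0.00127 in cDC and 0.000837 in pDC). Of the other cationic members, Slc7a2, Slc7a4 and Slc7a14 were not measured on these arrays.

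The neutral amino acid carriers of the Slc1a family were also lower. Slc1a4 (ASCT1), a carrier of alanine, serine and cysteine, read 5.53 and 5.53 in cDC and 4.38 and 4.35 in pDC, against 7.74 and 8.10 in CDP. It fell 5.22-fold in cDC (-2.39 ± 0.18 SE, adjusted p = 0.000157) and at least 7.55-fold in pDC (adjusted p = 2.32e-05). Slc1a5 (ASCT2), the glutamine importer that feeds Slc7a5 exchange, read 8.05 and 8.32 in cDC and 7.16 and 7.51 in pDC, against 8.85 and 9.17 in CDP. The arrays did not overlap, with a fall of 3.18-fold in pDC (-1.67 ± 0.23 SE, adjusted p = 0.00112) and 1.77-fold in cDC (-0.82 ± 0.23 SE, adjusted p = 0.024). The Slc1a5 call in cDC was lost without CDP replicate 2 (adjusted p = 0.115), cDC replicate 1 (0.114) or cDC replicate 2 (0.0505).

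**Figure D2:**
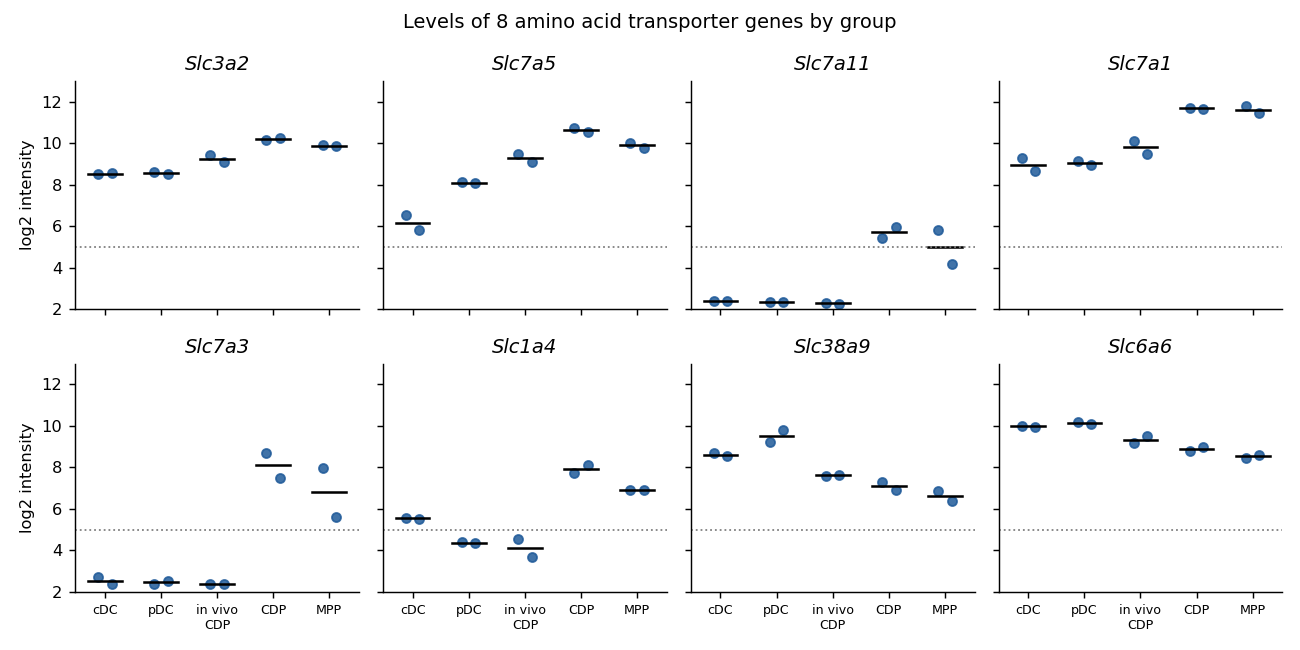
Log2 intensity of 8 members in cDC, pDC, in vivo CDP, CDP and MPP, with 1 point per array, a line at the mean of the 2 arrays of a group and a dotted line at 5, above which a gene counted as measured. Slc3a2, Slc7a5, Slc7a11, Slc7a1, Slc7a3 and Slc1a4 are lower in cDC and pDC than in CDP, and Slc38a9 and Slc6a6 are higher.

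Lysosomal carriers did not move as one. Slc38a9, the arginine-responsive carrier through which lysosomal amino acids activate mTORC1, read 8.69 and 8.54 in cDC and 9.24 and 9.79 in pDC, against 7.27 and 6.89 in CDP. It rose 2.90-fold in cDC (1.53 ± 0.27 SE, adjusted p = 0.00409) and 5.40-fold in pDC (2.43 ± 0.27 SE, adjusted p = 0.000473), with no overlap. The other Slc38a9 probe sets above 5 differed in the same direction, 4 of 4 in cDC and 5 of 5 in pDC. Slc38a7, a lysosomal glutamine exporter, read 4.98 and 4.65 in cDC and 5.41 and 5.20 in pDC, against 5.90 and 5.83 in CDP. It was lower in both, by at least 1.82-fold in cDC (adjusted p = 0.00381) and by 1.48-fold in pDC (adjusted p = 0.0366). The pDC call of Slc38a7 lies close to the measuring limit and was not checked with single arrays left out or under other settings. Slc36a1 (PAT1), a proton-coupled carrier of small amino acids on lysosomes, read 4.65 and 5.08 in cDC and 5.02 and 5.21 in pDC, against 5.87 and 5.64 in CDP. It passed as lower in both (adjusted p = 0.0152 in cDC and 0.0446 in pDC), close to the measuring limit. The pDC call was lost without any 1 of its 4 arrays (adjusted p = 0.0711 to 0.174), and the cDC call without CDP replicate 1 (0.0655) or cDC replicate 1 (0.0816). Slc36a4 (PAT4), a carrier of proline and tryptophan, read 4.38 and 4.59 in cDC and 5.57 and 5.73 in pDC, against 5.71 and 5.00 in CDP, and passed in neither (adjusted p = 0.129 in cDC and 0.578 in pDC).

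The glutamine carriers of the plasma membrane in the Slc38a family parted between the dendritic cells. Slc38a1 (SNAT1) read 10.54 and 10.61 in cDC and 12.14 and 12.03 in pDC, against 11.16 and 11.73 in CDP. It was lower in cDC (-0.87 ± 0.22 SE, adjusted p = 0.0172) and higher in pDC (0.64 ± 0.22 SE, adjusted p = 0.0466), with no overlap in either. Both calls were fragile: in cDC it was lost without CDP replicate 2 (adjusted p = 0.0741), cDC replicate 1 (0.0718) or cDC replicate 2 (0.0619), and in pDC without CDP replicate 1 (difference 0.36, adjusted p = 0.203), pDC replicate 1 (0.162) or pDC replicate 2 (0.106). Its second probe set differed by -0.34 in cDC and by 1.47 in pDC. Slc38a2 (SNAT2), the carrier that adapts to amino acid supply, read 12.71 and 12.50 in cDC and 11.65 and 11.85 in pDC, against 12.27 and 12.52 in CDP. It was lower in pDC (-0.65 ± 0.20 SE, adjusted p = 0.0295) and did not pass in cDC (0.21 ± 0.20 SE, adjusted p = 0.408). The pDC call was lost without CDP replicate 2 (adjusted p = 0.129), pDC replicate 1 (0.134) or pDC replicate 2 (0.0597), and a second probe set above 5 differed by 0.21. Slc38a10 was lower in pDC by 0.70 (adjusted p = 0.0367), a call lost without CDP replicate 2 (0.173), pDC replicate 1 (0.151) or pDC replicate 2 (0.0754), and of its 4 other probe sets above 5 only 2 had that direction. Slc38a6 did not pass in either kind (adjusted p = 0.543 in cDC and 0.372 in pDC).

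In the Slc6a family the 2 measured members went opposite ways. Slc6a9 (GlyT1), the glycine importer, read 2.83 and 2.83 in cDC and 3.04 and 3.04 in pDC, against 6.23 and 5.79 in CDP, a fall of at least 2.01-fold (adjusted p = 0.000324 in cDC and 0.00027 in pDC). Slc6a6 (TauT), the taurine importer, read 9.98 and 9.96 in cDC and 10.19 and 10.10 in pDC, against 8.80 and 8.98 in CDP. All dendritic cell arrays lay above both CDP arrays, a rise of 2.11-fold in cDC (1.08 ± 0.16 SE, adjusted p = 0.00219) and 2.38-fold in pDC (1.25 ± 0.16 SE, adjusted p = 0.000872). With each gene's most variable probe set the cDC rise was 1.10 and missed the threshold (adjusted p = 0.0594). Slc43a3, which carries purine nucleobases although its family is named for amino acids, read 7.35 and 6.67 in cDC and 8.01 and 7.99 in pDC, against 9.90 and 9.59 in CDP. It fell 6.63-fold in cDC (-2.73 ± 0.26 SE, adjusted p = 0.000403) and 3.35-fold in pDC (-1.74 ± 0.26 SE, adjusted p = 0.0016). Slc43a2 (LAT4), which lets branched-chain amino acids out of cells, read 7.76 and 8.39 in cDC and 7.40 and 8.30 in pDC, against 7.48 and 7.14 in CDP. It did not pass (adjusted p = 0.109 in cDC and 0.231 in pDC), and a second probe set of it differed by -0.63 in cDC.

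**Figure D3:**
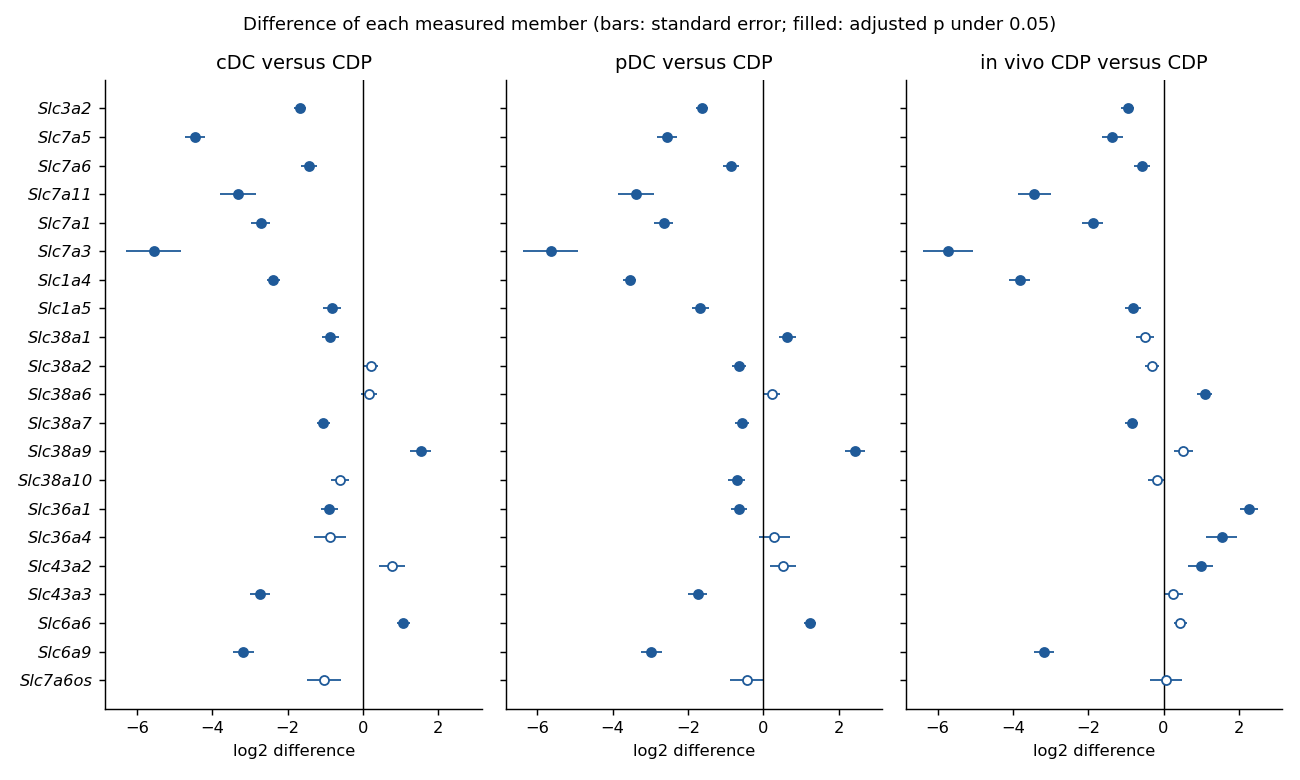
Log2 difference from CDP of each of the 21 measured members in cDC, pDC and in vivo CDP, with bars for limma's standard error and filled points where the adjusted p was under 0.05. The same 2 CDP arrays stand behind all 3 panels. The differences of Slc7a3, Slc7a11 and Slc6a9 run to readings near the floor and have no measured size beyond their bound. Those of Slc1a4 in pDC and in vivo CDP, and of Slc38a7 and Slc36a4 in cDC, run to readings under 5 and also have no measured size beyond a bound. Slc7a5 is 4.47 lower in cDC, Slc38a9 is the largest rise in cDC and pDC, and Slc36a1 is the largest rise in in vivo CDP.

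Set against each other, cDC and pDC differed in 6 of the 21 members, 3 higher and 3 lower in cDC, where 12.8% of all genes tested were higher and 12.7% lower. The leucine importer Slc7a5 was 3.77-fold lower in cDC than in pDC (-1.92 ± 0.26 SE, adjusted p = 0.00229). Slc38a1 was 2.85-fold lower in cDC (-1.51 ± 0.22 SE, adjusted p = 0.00306), and its second probe set differed by -1.80. Slc43a3 was 1.98-fold lower in cDC (adjusted p = 0.0332). The 3 higher in cDC were Slc1a4 (1.17 ± 0.18 SE, adjusted p = 0.00343), for which a bound of at least 1.45-fold holds since pDC read under 5, Slc38a2 (0.86 ± 0.20 SE, adjusted p = 0.0195) and Slc1a5 (0.85 ± 0.23 SE, adjusted p = 0.0362). The arrays of cDC and pDC did not overlap in any of the 6, as the readings above show. Without any 1 of the 4 arrays the calls of Slc1a5 (adjusted p = 0.0571 to 0.182) and Slc38a2 (0.0503 to 0.109) were lost. Slc43a3 was lost without cDC replicate 2 (difference -0.64, adjusted p = 0.143), pDC replicate 1 (0.128) or pDC replicate 2 (0.11). With no filter on low values all 3 were lost (adjusted p = 0.122 for Slc1a5, 0.0581 for Slc38a2 and 0.136 for Slc43a3), and Slc1a4 was lost with values under 5 raised to 5 (0.0566). Slc38a9 differed by -0.90 but missed the threshold (adjusted p = 0.0514), and Slc3a2 differed by -0.04 ± 0.15 SE (adjusted p = 0.88).

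CDP and MPP, both amplified in culture, differed in 1 of the 21 members, where 3.99% of all genes tested were higher in CDP and 3.52% lower. Slc1a4 read 7.74 and 8.10 in CDP, against 6.93 and 6.90 in MPP. It rose 2.01-fold (1.00 ± 0.18 SE, adjusted p = 0.0167), a call lost without MPP replicate 1 (adjusted p = 0.113), MPP replicate 2 (0.113) or CDP replicate 2 (0.0673). At an unadjusted p of 0.05 the count was 4. Slc7a5 read 10.74 and 10.55 in CDP, against 10.04 and 9.76 in MPP, which did not pass (0.75 ± 0.26 SE, adjusted p = 0.173). The arginine carrier Slc7a1 read 11.71 and 11.65 in CDP, against 11.78 and 11.45 in MPP (adjusted p = 0.946). The median difference of the members was 0.19, against 0.00 over all genes tested. The mean log2 level of 4 mast cell and basophil markers was 3.90 to 4.07 in CDP, where Cpa3, Hdc and Ms4a2 were under 5, against 9.54 to 9.61 in MPP, where all 4 were above 5. The part of such cells in this comparison was not tested.

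In vivo CDP differed from cultured CDP in 14 of the 21 members, 4 higher and 10 lower, where 27.6% of 9122 genes tested were higher and 19.5% lower. The same 2 cultured CDP arrays stand behind this comparison and those of cDC and pDC. Culture, labelling kit, RNA amount and extraction kit cannot be told apart in this comparison. The members near the floor in in vivo CDP were Slc7a3 (2.38 and 2.38, against 8.70 and 7.50 in CDP, at least 8.57-fold lower, adjusted p = 0.000363), Slc7a11 (2.32 and 2.25, against 5.45 and 5.98 in CDP, at least 1.64-fold lower, adjusted p = 0.000593) and Slc6a9 (2.83 and 2.83, against 6.23 and 5.79 in CDP, at least 2.01-fold lower, adjusted p = 8.32e-05). The Slc7a11 call was lost with values under 5 raised to 5 (adjusted p = 0.0628). Slc1a4 read 4.52 and 3.66 for in vivo CDP, against 7.74 and 8.10 in CDP, at least 7.55-fold lower (adjusted p = 3.94e-05).

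Other carriers were lower in in vivo CDP while still well above the floor. Slc7a1 read 10.12 and 9.48 for in vivo CDP, against 11.71 and 11.65 in CDP (3.70-fold lower, -1.89 ± 0.28 SE, adjusted p = 0.00114). Slc7a5 read 9.50 and 9.08 for in vivo CDP, against 10.74 and 10.55 in CDP (2.56-fold lower, -1.36 ± 0.27 SE, adjusted p = 0.00407). Slc3a2 read 9.43 and 9.08 for in vivo CDP, against 10.16 and 10.26 in CDP (1.94-fold lower, -0.96 ± 0.17 SE, adjusted p = 0.00256). None of the 3 overlapped with cultured CDP. The other lower members were Slc38a7 (-0.84, adjusted p = 0.00507), Slc1a5 (-0.81, adjusted p = 0.0178) and Slc7a6 (-0.58, adjusted p = 0.0498). Slc1a5 was lost without CDP replicate 2 (adjusted p = 0.0958) or in vivo CDP replicate 2 (0.103). Slc7a6 was lost without CDP replicate 2 (difference -0.31, adjusted p = 0.27), in vivo CDP replicate 1 (0.209) or replicate 2 (0.0858). With no filter on low values both were lost (adjusted p = 0.0554 for Slc1a5 and 0.105 for Slc7a6).

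Both measured proton-coupled carriers were higher in in vivo CDP. Slc36a1 read 7.77 and 8.26 for in vivo CDP, against 5.87 and 5.64 in CDP, a rise of 4.81-fold (2.26 ± 0.24 SE, adjusted p = 0.000232) with no overlap. Slc36a4 read 6.55 and 7.24 for in vivo CDP, against 5.71 and 5.00 in CDP, a rise of 2.91-fold (1.54 ± 0.42 SE, adjusted p = 0.0173). The Slc36a4 call was lost without CDP replicate 2 (adjusted p = 0.101) or in vivo CDP replicate 2 (0.119), or with no filter on low values (0.0978). Slc38a6, a neutral carrier whose substrates are less well known, read 7.39 and 7.49 for in vivo CDP, against 6.36 and 6.35 in CDP, a rise of 2.13-fold (1.09 ± 0.20 SE, adjusted p = 0.00285). Slc43a2 was higher by 0.99 ± 0.33 SE (adjusted p = 0.0366), a call lost without any 1 of the 4 arrays (adjusted p = 0.0573 to 0.168). Slc38a9 and Slc6a6, higher in both dendritic cells, did not pass here (adjusted p = 0.12 and 0.0669), and neither did Slc38a1 (0.125) and Slc38a2 (0.207).

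Genes of the ATF4 amino acid response were counted in the same comparisons, and their part in the carrier differences was not tested. Against CDP, 14 of 20 measured genes of that list were lower in cDC and 1 higher (median difference -3.29). In pDC 15 were lower and 1 higher (median -3.30), and in in vivo CDP 13 were lower and 2 higher (median -1.13). Over all genes tested the shares lower were 29.3% in cDC, 31.6% in pDC and 19.5% in in vivo CDP. The lists were chosen with earlier results known and no set test was made. Trib3, a pseudokinase induced by ATF4, read 2.55 and 2.61 in cDC, against 10.53 and 9.998 in CDP, at least 38.4-fold lower (adjusted p = 9.22e-05). Asparagine synthetase, Asns, read 7.35 and 5.74 on the cDC arrays, 4.40 and 3.004 on the pDC arrays and 6.07 and 4.26 for in vivo CDP, against 13.16 and 12.98 in CDP. It was lower by 6.53 ± 0.61 SE log2 units in cDC (adjusted p = 0.00035), at least 269-fold in pDC (adjusted p = 5.88e-05) and 7.90 ± 0.71 SE log2 units in in vivo CDP (adjusted p = 0.00011). The serine synthesis gene Phgdh read 7.32 and 6.86 in cDC, against 12.38 and 12.50 in CDP, and fell by 5.34 (adjusted p = 2.14e-05). Atf4 itself read 10.01 and 10.47 in cDC, against 11.32 and 11.13 in CDP, and fell by 0.98 (adjusted p = 0.00758). In pDC Atf4 fell by only 0.58 (adjusted p = 0.0468) and Phgdh by 3.02 (adjusted p = 8.78e-05). Neither was called in in vivo CDP. The 2 genes higher in in vivo CDP were Cebpb, by 2.25 (adjusted p = 0.000623), and Atf3. Atf3 read 8.61 and 9.41 for in vivo CDP, against 8.10 and 6.92 in CDP (adjusted p = 0.0343). In cDC against pDC 4 of the list were higher and 1 lower. In CDP against MPP 1 was higher (Atf3) and none lower, with 2 at an unadjusted p of 0.05 in limma.

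Genes that use the imported amino acids are given by list. Of 11 measured genes of cystine and glutathione metabolism, 8 were lower and none higher in cDC than in CDP, 7 were lower and 1 higher in pDC, and 3 were lower and 2 higher in in vivo CDP. The list's median difference was -1.63 in cDC, -1.37 in pDC and 0.23 in in vivo CDP, against -0.16, -0.14 and 0.10 over all genes tested. In in vivo CDP its counts were near the shares over all genes (19.5% lower and 27.6% higher). Cth, the enzyme that makes cysteine from cystathionine, read 2.28 and 2.25 on the cDC arrays, 2.25 and 2.25 on the pDC arrays and 2.28 and 2.26 for in vivo CDP, against 11.07 and 9.82 in CDP, at least 43.5-fold lower in each (adjusted p = 0.00024 in cDC, 0.000149 in pDC and 5.25e-05 in in vivo CDP). The Nrf2 targets Gsr (-2.46, adjusted p = 0.000419) and Txnrd1 (-2.39, adjusted p = 0.000618) were lower in cDC. In CDP against MPP only Gsr was called, 1.33 lower (adjusted p = 0.0185), and in cDC against pDC only Txnrd1, 0.95 higher (adjusted p = 0.0364). Of 7 measured genes of arginine and polyamine use, 3 were lower and 1 higher in cDC than in CDP, 4 were lower in pDC, and 1 was lower and 1 higher in in vivo CDP. These small counts stand beside 29.3% of all genes lower in cDC, 31.6% in pDC and 19.5% in in vivo CDP. Srm, spermidine synthase, read 7.27 and 7.14 in cDC and 7.37 and 7.28 in pDC, against 9.60 and 10.07 in CDP (-2.63 in cDC, adjusted p = 0.000194, and -2.51 in pDC, adjusted p = 0.000147). Gatm, the first enzyme of creatine synthesis from arginine, read 7.67 and 8.22 in cDC, against 2.25 and 2.73 in pDC, at least 7.69-fold higher in cDC (adjusted p = 3.5e-05). In that comparison 3 of the list were higher and 1 lower, and none was called in CDP against MPP, where 2 had an unadjusted p under 0.05 in limma.

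Genes of lysosomal amino acid sensing by mTORC1, the pathway that Slc38a9 serves, are given next. Of 19 measured, 5 were higher and 1 lower in cDC than in CDP, and 6 higher and 1 lower in pDC. Over all genes tested 18.7% were higher and 29.3% lower in cDC, and 21.7% higher and 31.6% lower in pDC. The counts of higher genes were thus close to that background, and those of lower genes were under it. The list's median difference was 0.13 in cDC and 0.31 in pDC, against -0.16 and -0.14 over all genes. The leucine-sensing family member Sesn3 read 8.67 and 8.32 in cDC and 8.52 and 8.20 in pDC, against 7.28 and 7.10 in CDP (1.31 in cDC, adjusted p = 0.00272, and 1.17 in pDC, adjusted p = 0.00321). The GATOR1 subunit Nprl2, part of the brake on mTORC1, read 6.72 and 6.88 in cDC and 7.29 and 7.55 in pDC, against 5.79 and 6.06 in CDP (0.87 in cDC, adjusted p = 0.0115, and 1.49 in pDC, adjusted p = 0.00101). In in vivo CDP against CDP 5 of 20 were higher and 4 lower, near the 27.6% and 19.5% of all genes, with Depdc5, another GATOR1 subunit, at 6.45 and 6.71 for in vivo CDP, against 3.65 and 3.78 in CDP (at least 2.98-fold higher, adjusted p = 6.5e-05). In CDP against MPP 2 were higher and none lower, and in cDC against pDC 1 was higher and 1 lower.

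Of 13 measured amino acid and peptide carriers of other families, 4 were higher and 5 lower in cDC than in CDP, and 4 higher and 3 lower in pDC. Over all genes tested 18.7% were higher and 29.3% lower in cDC, and 21.7% higher and 31.6% lower in pDC, so the count of lower carriers in pDC was under the background. The aromatic amino acid carrier Slc16a10 was lower in both, with 3.42 and 3.61 in cDC and 3.21 and 3.67 in pDC, against 6.55 and 7.28 in CDP, at least 3.76-fold in each (adjusted p = 0.000541 in cDC and 0.000332 in pDC). The mitochondrial carrier Slc25a13 was lower by 2.33 in cDC (adjusted p = 0.000541) and at least 7.51-fold in pDC (adjusted p = 5.1e-05). Slc25a15 was lower by 2.05 in cDC (adjusted p = 0.00158). The lysosomal carrier Slc66a1 was higher by 2.24 in cDC (adjusted p = 0.00458) and 1.43 in pDC (adjusted p = 0.0223). The lysosomal peptide and histidine carrier Slc15a3 read 8.86 and 8.44 in cDC and 9.68 and 8.69 in pDC, against 7.57 and 6.78 in CDP, a rise of 1.48 in cDC (adjusted p = 0.0217) and 2.01 in pDC (adjusted p = 0.00543). Slc15a3 was also higher in CDP than in MPP (at least 4.52-fold, adjusted p = 0.00222) and lower in in vivo CDP than in CDP (at least 4.52-fold, adjusted p = 0.00165), and 2 of the list were called in each direction in in vivo CDP and in cDC against pDC. In CDP against MPP 2 were higher and none lower.

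No member was called as higher or lower before 24 h of TGF-β1. Of 38 members measured in this series none was called at 4 h (where 0.569% of 12656 genes tested were higher and 0.079% lower), none at 8 h (1.2% higher and 0.348% lower) and none at 12 h (3.68% higher and 1.68% lower), by limma. At an unadjusted p of 0.05 the counts were 1, 3 and 7. At 24 h 2 were higher and 3 lower, against 10.8% of all genes higher and 8.42% lower. The moderated F-test over all times called 1 member, Slc38a6 (adjusted p = 0.0247), where it called 9.73% of all genes. All times are compared with the same 2 untreated arrays. Same-numbered arrays deviated together (correlations of 0.27 to 0.85), and with the replicate number as a block 11 members were called at 24 h, 4 higher and 7 lower, 3 at 12 h, 1 at 8 h, none at 4 h and 8 by the F-test. Over all genes the same blocked fit called 1.21% after 4 h, 4.47% after 8 h, 12.1% after 12 h and 30.1% after 24 h, and 20.4% by the F-test, so the members' counts were near or under the background. The 3 arrays of low 5′ signal are all replicate 1, and without them, with 1 array left at 4, 12 and 24 h, 9 members were called at 24 h, 5 at 12 h, 6 at 8 h and 7 by the F-test, where 31.8%, 12.9%, 9.73% and 19.3% of 12465 genes were called.

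The members that rose were 2 neutral carriers. Slc38a6 read 6.30 and 6.38 at 0 h, 7.56 and 6.99 at 4 h, 6.98 and 7.10 at 8 h, 7.37 and 7.22 at 12 h and 8.19 and 7.75 at 24 h. Every treated array lay above both untreated arrays, and the rise at 24 h was 3.09-fold (1.63 ± 0.23 SE, adjusted p = 0.00261). At 12 h the difference was 0.96 (adjusted p = 0.0554, and 0.0197 with the replicate block). Slc43a2, the exporter of branched-chain amino acids, read 9.29 and 9.19 at 0 h, 10.16 and 9.52 at 4 h, 9.76 and 9.999 at 8 h, 10.78 and 10.07 at 12 h and 11.22 and 10.42 at 24 h. All 8 treated arrays were above both untreated ones, with a rise of 2.99-fold at 24 h (1.58 ± 0.35 SE, adjusted p = 0.0161). The block gave a call at 12 h as well (1.19, adjusted p = 0.0225). Without the arrays of low 5′ signal, which gave the higher Slc43a2 reading of the pair at 4, 12 and 24 h, the 24 h difference was 1.18 (adjusted p = 0.00254). Its call was lost without untreated replicate 1 (adjusted p = 0.084), untreated replicate 2 (0.102) or 24 h replicate 1 (0.0928). The 2 other Slc43a2 probe sets differed by 0.62 and 0.80 at 24 h.

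The members that fell carry arginine, lysine and small neutral amino acids. Slc7a1 read 11.94 and 12.24 at 0 h, 11.89 and 11.31 at 4 h, 11.06 and 10.89 at 8 h, 11.62 and 11.10 at 12 h and 10.97 and 10.75 at 24 h. Every treated array was below both untreated arrays, and the fall at 24 h was 2.35-fold (-1.23 ± 0.26 SE, adjusted p = 0.0128). At 8 h the difference was -1.12, which missed the threshold (adjusted p = 0.0924) and passed with the block (0.0281). Its 24 h call was lost without untreated replicate 1 (adjusted p = 0.0511), untreated replicate 2 (0.107) or 24 h replicate 2 (0.0644), and a second probe set differed by -1.63. Slc7a6 read 9.55 and 9.42 at 0 h, 9.89 and 9.15 at 4 h, 9.12 and 8.71 at 8 h, 9.09 and 8.91 at 12 h and 8.66 and 8.11 at 24 h. It fell 2.14-fold at 24 h (-1.10 ± 0.29 SE, adjusted p = 0.0332), a call lost without untreated replicate 1 (0.172), untreated replicate 2 (0.134) or 24 h replicate 2 (0.151), and its second probe set differed by -1.62. Slc36a1 read 7.84 and 7.79 at 0 h, 7.44 and 7.96 at 4 h, 7.85 and 7.68 at 8 h, 7.41 and 7.54 at 12 h and 6.61 and 7.04 at 24 h. Its fall at 24 h was 1.98-fold (-0.99 ± 0.22 SE, adjusted p = 0.018), lost without untreated replicate 1 (0.11), untreated replicate 2 (0.0986) or 24 h replicate 1 (0.11).

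**Figure D4:**
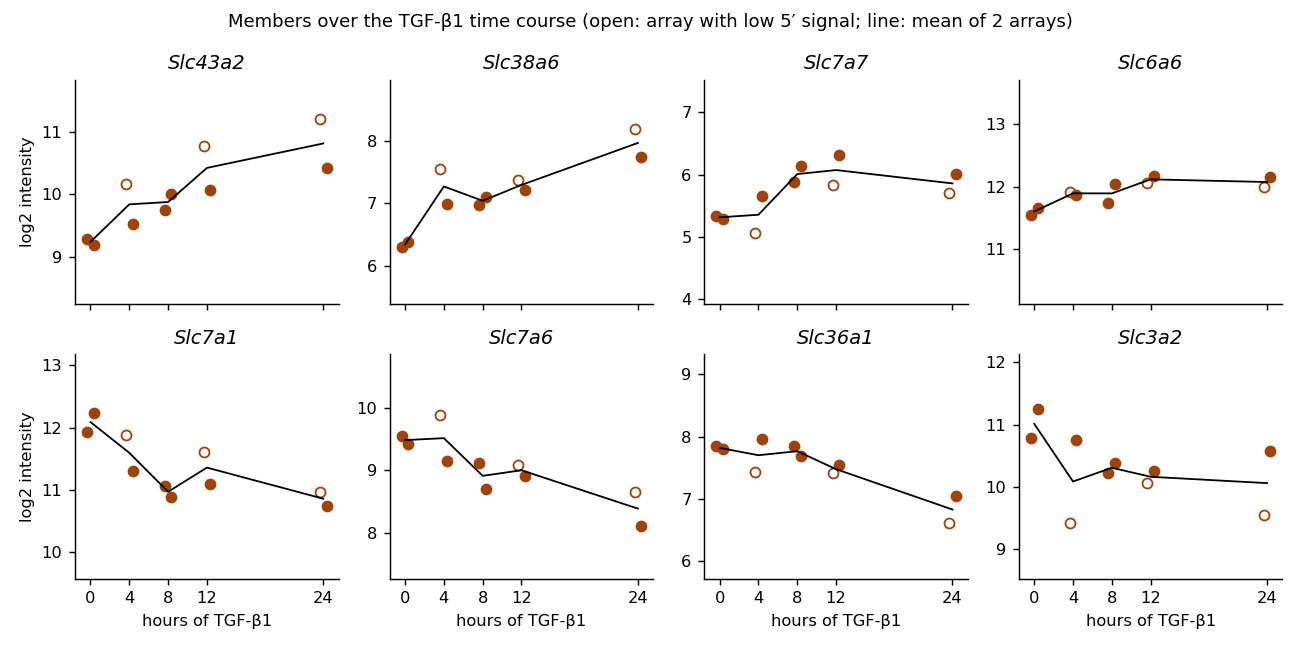
Log2 intensity of 8 members in CDP at 0, 4, 8, 12 and 24 h of TGF-β1, with 1 point per array (open for the 3 arrays of low 5′ signal), a line through the mean of the 2 arrays and axes that all span the same 3.6 log2 units. Slc43a2 and Slc38a6 lie above their untreated values at every time, Slc7a1 lies below them at every time, and Slc7a6 and Slc36a1 are lowest at 24 h.

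The leucine uptake pair and the glutamine importer were not called with all arrays and no block. Slc3a2 read 10.78 and 11.25 at 0 h, 9.42 and 10.75 at 4 h, 10.23 and 10.39 at 8 h, 10.06 and 10.26 at 12 h and 9.55 and 10.58 at 24 h (-0.95 ± 0.46 SE at 24 h, adjusted p = 0.209). Every treated Slc3a2 array lay below both untreated arrays, and the 24 h difference passed with the block (adjusted p = 0.0385). Slc7a5 read 11.57 and 12.02 at 0 h, 10.07 and 11.61 at 4 h, 10.83 and 11.01 at 8 h, 11.06 and 11.04 at 12 h and 10.38 and 11.27 at 24 h (-0.97 ± 0.48 SE at 24 h, adjusted p = 0.217). Slc1a5 read 9.30 and 9.30 at 0 h, 7.23 and 9.02 at 4 h, 8.59 and 8.82 at 8 h, 8.64 and 8.84 at 12 h and 7.77 and 8.88 at 24 h (-0.98 ± 0.55 SE at 24 h, adjusted p = 0.28). In all 3 the arrays of low 5′ signal gave the lowest readings at 4 and 24 h. Without those arrays the 24 h differences were -0.44 for Slc3a2 (adjusted p = 0.183), -0.53 for Slc7a5 (adjusted p = 0.111) and -0.42 for Slc1a5 (adjusted p = 0.0977). Both 8 h arrays stay in that fit, which at 8 h called Slc7a5 (-0.88, adjusted p = 0.0283) and Slc1a5 (-0.60, adjusted p = 0.0388) but not Slc3a2 (-0.70, adjusted p = 0.0554). With 4 h replicate 2 left out, only such an array stood for 4 h. The 4 h differences were then -1.59 for Slc3a2, -1.73 for Slc7a5 and -2.07 for Slc1a5.

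Members called elsewhere or with the block gave small differences at 24 h. The light chain Slc7a7 (y+LAT1), the arginine exporter, read 5.34 and 5.29 at 0 h, 5.88 and 6.14 at 8 h, 5.83 and 6.31 at 12 h and 5.71 and 6.01 at 24 h (0.54, adjusted p = 0.187), and passed at 12 h with the block (adjusted p = 0.0293). Slc6a6 read 11.99 and 12.16 at 24 h, against 11.55 and 11.66 at 0 h (0.47, adjusted p = 0.0856, and 0.0397 with the block). Slc38a9 read 7.81 and 7.50 at 24 h, against 7.29 and 6.69 at 0 h (0.66, adjusted p = 0.273, and 0.0173 with the block). The same block also called Slc43a1 (-0.64, adjusted p = 0.0109), Slc43a3 (-0.57, adjusted p = 0.0355) and Slc7a6os (-0.74, adjusted p = 0.0438). Slc1a4 differed by -0.51 (adjusted p = 0.419), and it was called with the most variable probe set per gene (-1.50, adjusted p = 0.0382) and without the arrays of low 5′ signal (-0.70, adjusted p = 0.0467). Slc38a1 (-0.25, adjusted p = 0.452), Slc38a2 (0.49, adjusted p = 0.304), Slc36a4 (0.07, adjusted p = 0.906) and Slc6a9 (-0.51, adjusted p = 0.311) did not pass. Slc7a11, Slc7a2 and Slc7a8 stayed under 5 on all 10 arrays and were not measured. The median difference of the 38 members at 24 h was -0.10, against 0.00 over all genes tested.

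Compared directly, 24 h differed from 4 h in 3 of the 38 members, all lower at 24 h in the fit without a block, where 7.61% of all genes tested were higher and 5.23% lower. These were Slc7a6 (-1.13 ± 0.29 SE, adjusted p = 0.0402), Slc43a1 (-0.88 ± 0.21 SE, adjusted p = 0.0319) and Slc36a1 (-0.87 ± 0.22 SE, adjusted p = 0.0398). None of these 3 calls was checked with single replicates left out in turn. Slc43a1 (LAT3), a facilitative carrier of large neutral amino acids, read 7.42 and 7.85 at 0 h, 7.83 and 7.92 at 4 h and 6.86 and 7.14 at 24 h. With the replicate block, 8 members were called where 23.9% of all genes were, 4 higher and 4 lower. The block added Slc38a6 (0.70, adjusted p = 0.0391), Slc38a9 (0.83, adjusted p = 0.00914), Slc43a2 (0.98, adjusted p = 0.0285) and Slc6a13 (0.98, adjusted p = 0.0134) as higher at 24 h and Slc7a1 (-0.74, adjusted p = 0.0416) as lower. Without the arrays of low 5′ signal 4 members were called, where 18.9% of all genes were. Slc7a6 (-1.04, adjusted p = 0.0255) and Slc36a1 (-0.92, adjusted p = 0.0161) were among them, with Slc38a6 and Slc43a2, while Slc43a1 was not (-0.78, adjusted p = 0.0788).

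The counts of the pathway lists at 24 h stand beside 10.8% of all genes higher and 8.42% lower. Of 21 measured ATF4 response genes, 1 was higher and 6 lower than at 0 h. Cebpb, a transcription factor of that response, read 8.00 and 7.71 at 24 h, against 11.38 and 11.27 at 0 h (-3.47 ± 0.34 SE, adjusted p = 0.000563). Psph, the last enzyme of serine synthesis, read 7.88 and 8.95 at 24 h, against 9.80 and 10.43 at 0 h (-1.69, adjusted p = 0.0264). The mitochondrial folate enzyme Mthfd2 read 8.53 and 9.92 at 24 h, against 10.59 and 11.18 at 0 h (-1.66, adjusted p = 0.029). The mTORC1 inhibitor Ddit4 read 11.06 and 11.44 at 24 h, against 9.66 and 9.57 at 0 h (1.63, adjusted p = 0.00538). The first 24 h reading of each gene is from the array of low 5′ signal. For genes of the lists only the main fit is given. Of 15 genes of cystine and glutathione metabolism, 1 was higher and 4 lower at 24 h, with Cth at 4.33 and 4.62 at 24 h, against 7.24 and 8.34 at 0 h, at least 6.92-fold lower (adjusted p = 0.000524). Cth and Gsr, the glutathione reductase, were also lower at 8 h (adjusted p = 0.0343 and 0.0445) and 12 h (adjusted p = 0.0143 and 0.0209). Of 8 genes of arginine and polyamine use, 2 were lower at 24 h and none higher. Srm read 8.96 and 8.83 at 24 h, against 12.12 and 12.29 at 0 h (-3.31 ± 0.37 SE, adjusted p = 0.000947), and Gatm was lower by 1.86 (adjusted p = 0.0018).

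Of 21 genes of lysosomal amino acid sensing, 3 were higher at 24 h and none lower: Sesn3 (1.15, adjusted p = 0.00857), Depdc5 (0.78, adjusted p = 0.0122) and the arginine sensor Castor1 (0.75, adjusted p = 0.0193). Depdc5 was also higher at 12 h (0.70, adjusted p = 0.0463). Of 15 carriers of other families, 4 were higher and 1 lower at 24 h. The peptide importer Slc15a2 read 9.27 and 8.29 at 24 h, against 6.79 and 6.26 at 0 h (2.26 ± 0.49 SE, adjusted p = 0.0151). The lysosomal cationic amino acid exporter Slc66a1 was higher by 1.41 (adjusted p = 0.0207), the endolysosomal peptide carrier Slc15a4 was higher by 1.11 (adjusted p = 0.0195), and the mitochondrial aspartate and glutamate carrier Slc25a13 was lower by 1.16 (adjusted p = 0.0415). Over the same hours the mean log2 level of the 7 granulocyte markers was 6.34 to 6.45 at 24 h, against 7.62 to 7.75 at 0 h, and that of the 7 cDC markers was 8.31 to 8.44 at 24 h, against 6.21 to 6.43 at 0 h. The part of a change in the cells present was not tested.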

How the data were processed

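RNA of 20 samples had been hybridised to Affymetrix mouse expression arrays. The authors deposited log2 intensities per probe set, and the submitters' processing notes name GCRMA, with no version. The values were used as deposited. Of 45101 probe sets, 34958 had 1 gene symbol in the platform annotation, 932 had several and were left out, and 9211 were not named. One probe set per gene was kept, the one with the highest mean over the 20 arrays. Genes above 5 on at least 2 arrays of a fit were tested two-sided by lmFit and eBayes of limma 3.58.1 under R 4.3.3 (Benjamini-Hochberg adjustment over all genes tested, threshold 0.05). Separate fits were made for the 8 one-cycle arrays, for these with the 2 in vivo CDP arrays, and for the 10 TGF-β1 arrays. Folds are unlogged differences, and a lower group with both readings under 5 was set to 5, which gives the folds written as at least a size. The fits were tested on simulated data. Members and gene lists were chosen with earlier results of these data known. In each comparison up to 12 called members per direction whose groups did not overlap were named, with a set of carriers that was always given. Slc38a7 in pDC fell outside this rule and was named after its value was seen, so it was not checked under the alternatives. Replicate numbers come from the titles; same-numbered TGF-β1 arrays deviated together (correlations 0.27 to 0.85), so blocked values are given where they change a call. The number of arrays limits the precision. Alternatives were array centring, quantile normalization, other filters, raising low values to 5, the most variable probe set, the replicate block, leaving out each replicate and leaving out arrays of low 5′ signal. They are given for members, and for genes of the pathway lists only the main fit is given.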

Additional observations from a re-analysis of the deposited data

Results flagged for a closer look

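The difference between the 24 h and 4 h effects of TGF-β1 passed limma's test of that difference for 3 of 38 members. Over all genes tested 7.61% were higher at 24 h and 5.23% lower. The 3 calls were not checked with single replicates left out. In that check the calls of Slc7a6 and Slc36a1 at 24 h against 0 h were lost. Slc7a6 differed by -1.13 (adjusted p = 0.0402), Slc43a1 by -0.88 (adjusted p = 0.0319) and Slc36a1 by -0.87 (adjusted p = 0.0398), each lower at 24 h on both arrays. One array at each of the 2 times had low 5′ signal. Without the arrays of low 5′ signal, Slc7a6 differed by -1.04 (adjusted p = 0.0255) and Slc36a1 by -0.92 (adjusted p = 0.0161), and Slc43a1 by -0.78 with its call lost (adjusted p = 0.0788).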

How the results depend on the processing

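Of 1650 values of named members under the alternatives, 1535 kept their side of the threshold, 87 lost the call, 28 gained it and 0 calls turned direction. Differences that were not called could change sign. At 4 h, Slc36a1 differed by -0.12 with all arrays and by 0.15 without those of low 5′ signal, and Slc7a6 by 0.03 and -0.34. With each replicate left out in turn, the members called numbered 12 to 15 for cDC against CDP, 11 to 14 for pDC against CDP, 10 to 14 for in vivo CDP against CDP, 3 to 4 for cDC against pDC, 0 to 1 for CDP against MPP, 0 to 4 at 4 h, 0 at 8 h and 12 h, 1 to 3 at 24 h and 0 to 9 by the F-test. Raising values under 5 to 5 gave 2 calls for CDP against MPP. In the TGF-β1 series the replicate block called 4.47% of all genes at 8 h, 12.1% at 12 h, 30.1% at 24 h and 20.4% by the F-test. The TGF-β1 counts of members with it were 1, 3, 11 and 8 in that order. Without the arrays of low 5′ signal they were 6, 5, 9 and 7, where the lone arrays left at 4, 12 and 24 h are assumed to vary like the other groups. The most variable probe set per gene gave 1 call at 12 h and 2 by the F-test. The shares of all genes called without the arrays of low 5′ signal are given above. For the remaining settings of this paragraph no such share is given, so their counts are no result about the members alone. The cause of these shifts was not tested. In the other arrays the numbers were not taken as pairs, since not all groups deviated together (correlation 0.58 between CDP and MPP arrays and 0.44 between cDC and pDC arrays, but down to -0.06 elsewhere), and the block gave 16, 17, 1, 6 and 14 calls for cDC and pDC against CDP, CDP against MPP, cDC against pDC and in vivo CDP against CDP. With 2 arrays per group and a floor on 10 of the arrays, members near 5 are measured least well.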
